A study of Mus musculus with 6 samples.

Results

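The genes described here encode the network that gives basement membranes their mechanical strength: the 6 type IV collagen chains (Col4a1 to Col4a6), the heparan sulfate collagen XVIII (Col18a1), the nidogens (Nid1 and Nid2) and the perlecan core protein (Hspg2). They were chosen by symbol, and all 10 were present among the 43074 gene symbols of the deposited count table. RNA sequencing was used to profile C2C12, a single established mouse myoblast line that fuses into multinucleated myotubes when serum is changed. The line is wild type per the labels. There were 3 groups of 2 libraries. Day 0 cells were untreated. The other groups were grown for 4 days in horse serum differentiation medium that held DMSO or 1 mM 4-phenylbutyric acid (4-PBA), which acts on cells as a chemical chaperone and also inhibits histone deacetylases. Day 0 differs from day 4 with DMSO in time, medium and vehicle, which cannot be told apart. The labels do not say whether replicate libraries came from separate cultures, so p-values measure the spread between these libraries, which may be technical.

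In a basement membrane, laminin assembles at the cell surface through integrins and dystroglycan, and type IV collagen forms a second polymer that is crosslinked outside the cell. Nidogens bind laminin, type IV collagen and perlecan and so link the layers, while perlecan and collagen XVIII carry heparan sulfate chains that hold growth factors. Each muscle fibre is wrapped in such a sheet. The common collagen trimer joins alpha-1 chains with an alpha-2 chain, whereas alpha-3, alpha-4 and alpha-5 chains form the trimer of the kidney glomerulus, and alpha-5 with alpha-6 chains that of smooth muscle and some epithelia.

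The type IV collagen genes lie in head-to-head pairs. Promoter windows from RefSeq on GRCm38.p6, 250 bases before to 50 bases after a transcription start, were found for 8 of the 10 genes. Col4a3 and Nid2 had no window, so the motif counts below do not cover them. The submitters' processing notes name GRCm39, so these positions belong to the RefSeq table and not to the counts. The windows of Col4a1 (chr8:11312777-11313076, minus strand) and Col4a2 (chr8:11312555-11312854, plus strand) share 78 bases, and the starts lie 21 bases apart. Those of Col4a5 and Col4a6 lie 1343 bases apart on the X chromosome. The first pair is shown because its members moved together in every comparison below. Capitals mark the shared bases, which read as reverse complements of each other.
Col4a1: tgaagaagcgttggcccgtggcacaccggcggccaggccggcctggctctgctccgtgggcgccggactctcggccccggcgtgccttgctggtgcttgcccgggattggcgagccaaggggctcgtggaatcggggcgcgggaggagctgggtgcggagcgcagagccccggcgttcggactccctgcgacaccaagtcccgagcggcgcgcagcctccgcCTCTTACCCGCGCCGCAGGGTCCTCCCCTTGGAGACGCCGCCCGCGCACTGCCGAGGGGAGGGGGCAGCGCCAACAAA
Col4a2: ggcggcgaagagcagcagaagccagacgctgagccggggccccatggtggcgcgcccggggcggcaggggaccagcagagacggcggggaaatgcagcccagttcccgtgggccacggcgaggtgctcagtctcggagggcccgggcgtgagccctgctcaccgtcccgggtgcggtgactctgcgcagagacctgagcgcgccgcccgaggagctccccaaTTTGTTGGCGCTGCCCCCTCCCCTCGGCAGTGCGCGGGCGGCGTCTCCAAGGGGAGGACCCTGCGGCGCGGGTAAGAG

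Nid1 (chr13:13437352-13437651, plus strand) and Hspg2 (chr4:137468553-137468852, plus strand) are shown because they moved in opposite directions between day 0 and day 4. Capitals mark GC boxes (GGGCGG, either strand).
Nid1: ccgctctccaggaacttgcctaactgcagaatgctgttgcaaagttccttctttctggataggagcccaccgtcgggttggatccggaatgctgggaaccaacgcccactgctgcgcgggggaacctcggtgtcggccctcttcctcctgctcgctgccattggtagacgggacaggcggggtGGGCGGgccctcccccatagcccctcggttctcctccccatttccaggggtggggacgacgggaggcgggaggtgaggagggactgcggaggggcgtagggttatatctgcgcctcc
Hspg2: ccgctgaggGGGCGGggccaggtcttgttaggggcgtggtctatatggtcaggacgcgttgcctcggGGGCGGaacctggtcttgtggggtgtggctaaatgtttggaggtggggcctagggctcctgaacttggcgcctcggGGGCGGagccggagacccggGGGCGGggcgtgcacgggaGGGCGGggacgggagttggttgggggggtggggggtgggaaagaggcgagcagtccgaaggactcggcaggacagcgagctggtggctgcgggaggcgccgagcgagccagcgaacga
GC boxes occurred 5 times in the Hspg2 window, once in that of Nid1, once in that of Col4a1 and 3 times in that of Col4a2. At least 1 was found in 7 of 9 windows of the network genes (Col18a1 has several starts), against 35.7% of all 32851 windows of this length. The GC box of the Col4a1 window lies in the bases shared with Col4a2, so the same site was counted in both windows. The letters CCAAT, on either strand, were in 5 of 9 windows, against 37.4% of all windows. Since the title of the study names NF-κB and Egr-1, their motifs were searched on both strands. The NF-κB consensus was found in 1 window, that of Col4a2, against 8.46% of all windows. The Egr letters GCGTGGGCG (0.612% of all windows) and GCGGGGGCG (2.91%), which can overlap a GC box, and the muscle E-box CAGCTG (16.3%), were in none of the 9 windows. These matches describe letters in a window, not bound sites.

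Total counts ranged from 47908926 to 74697397 per library. All libraries carried the same batch number. Muscle lineage markers (Myod1, Myf5, Des, Cdh15 and Itga7) were present in every library. The defining markers of endothelial, leukocyte, epithelial, adipocyte and Schwann cells were low. The highest value of these 25 genes was 5.47 CPM (counts per 1000000, scaled by TMM), that of Cd68, and the Schwann cell markers Sox10 and Foxd3 had no counts. The summed level of 5 myotube markers was 77.3 to 81.8 CPM at day 0, 4387 to 4649 CPM with DMSO and 4336 to 4428 CPM with 4-PBA. That of 5 cycling cell markers was 1495 to 1525 CPM, 391 to 464 CPM and 490.1 to 500.04 CPM in the same order. In bulk libraries such as these, fewer cells of a type and less RNA per cell cannot be told apart.

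The network took 0.307% ± 0.000910 of all counts at day 0, 0.499% ± 0.00416 at day 4 with DMSO and 0.514% ± 0.00119 with 4-PBA (SD, n = 2). The shares in single libraries were 0.307% and 0.306%, 0.502% and 0.496%, and 0.513% and 0.515%, each with a 95% Wilson interval no wider than ± 0.00178 percentage points, which covers counting error only. Both 4-PBA libraries lay above both DMSO libraries, which lay above both day 0 libraries.

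Levels of different genes were compared as CPM per kilobase of the longest coding transcript in GENCODE M21. At day 0, Nid1 was the most abundant transcript of the network at 127 ± 1.75 CPM per kb (SD, n = 2), followed by Col4a1 (71.9 ± 0.120), Hspg2 (69.4 ± 0.385), Col18a1 (59.6 ± 1.06), Col4a2 (55.5 ± 0.239), Nid2 (17.7 ± 0.275) and Col4a5 (3.82 ± 0.0841). At day 4 with DMSO the order was led by Hspg2 (171 ± 3.51 CPM per kb), Col4a1 (134 ± 2.30) and Col4a2 (105 ± 0.864), then Nid1 at 69.5 ± 3.70, ahead of Col18a1 (60.8 ± 2.12), Nid2 (45.6 ± 1.31) and Col4a5 (9.19 ± 0.00516). With 4-PBA the order was the same, with Hspg2 at 163 ± 0.810 and Col4a1 at 152 ± 0.110. In each group the libraries of neighbours in the order did not overlap, except for Col4a3 and Col4a4 in the day 0 and the 4-PBA group. Some neighbours were close enough for the choice of length to reverse them: per coding length Col4a2 ranked above Col18a1 at day 0, and Col4a1 above Hspg2 and Nid2 above Col18a1 with 4-PBA.

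**Figure D1:**
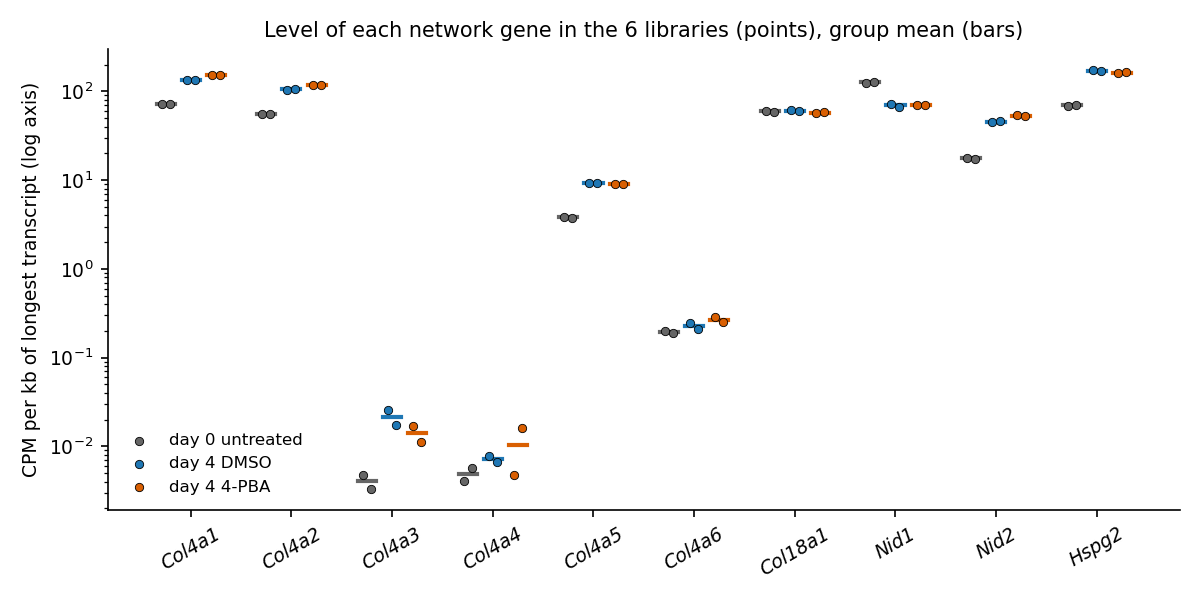
CPM per kilobase of the longest transcript (log axis) of the 10 network genes; points are the 2 libraries of each group and bars the group mean. Nid1 is the highest at day 0 and Hspg2 at day 4, and Col4a3 and Col4a4 stay under 0.03 CPM per kb in all 6 libraries.

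As a share of the summed level per kilobase of the 10 genes, Nid1 made up 31.3% ± 0.387 at day 0 and 11.7% ± 0.525 with DMSO (SD, n = 2). Hspg2 went from 17.1% ± 0.0702 to 28.7% ± 0.355, and Col4a1 with Col4a2 from 17.8% ± 0.00390 and 13.7% ± 0.0790 to 22.5% ± 0.571 and 17.6% ± 0.290. Per kilobase, the transcript pool of the network thus had a different leading gene at day 0 and at day 4 with DMSO. By counts, Hspg2 led at day 0 too, at 32.4% of the network's counts against 25.4% for Nid1.

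Differentiation without the drug was described by setting the DMSO libraries against day 0. Differences were tested with edgeR's quasi-likelihood test over 17433 genes, and called at a Benjamini-Hochberg adjusted p-value under 0.05. Type IV collagen alpha-1, alpha-2 and alpha-5 chains, Nid2 and Hspg2 rose, Nid1 fell, and no difference was called for Col4a6 or Col18a1. Of the 10 genes 8 passed the filter on low counts, and 6 of these were called, 5 higher and 1 lower. Of all tested genes 66.3% were called, 33.8% higher and 32.6% lower. The number called is thus near the background, and it is the directions and sizes that describe the network. In 7 of the 8 the libraries of the groups did not overlap, as for 81.9% of all tested genes. The median log2 fold change over the 8 tested genes was 0.91, against 0.023 over all tested genes, where rises and falls offset each other. Regardless of sign, the median log2 fold change over all tested genes was 0.477.

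Col4a1, the alpha-1 chain present in nearly every basement membrane, measured 475 and 476 CPM before differentiation. The DMSO libraries held 877 and 899 CPM and the 4-PBA libraries 1006 and 1005 CPM. The groups did not overlap. With DMSO it was 1.87-fold higher than at day 0 (log2 fold change 0.90, SE 0.0278, adjusted p 3.02e-25). Col4a2, its partner in the same trimer, stood at 359 and 357 CPM, 674 and 682 CPM, and 765 and 768 CPM in the same order. Its groups did not overlap either, and with DMSO it stood 1.89-fold above day 0 (log2 fold change 0.92, SE 0.0281, adjusted p 2.5e-25).

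Within a library the ratio of Col4a1 to Col4a2, per kilobase, was 1.29 and 1.30 before differentiation, 1.27 and 1.29 under DMSO, and 1.28 and 1.28 under 4-PBA. The protein trimer holds more alpha-1 than alpha-2 chains. While the level of both genes rose, the transcript ratio moved little. Its group means were 1.29, 1.28 and 1.28, as the plot of ratios shows. Such a ratio does not depend on how libraries are scaled. With 2 libraries against 2, an exact permutation test cannot give a p-value under 0.333, so ratios are described without a test.

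Col4a5, the X-linked alpha-5 chain, was far less abundant. The day 0 libraries held 25.3 and 24.6 CPM, those with DMSO 60.0 and 60.1 CPM, and those with 4-PBA 59.7 and 58.8 CPM. Both day 4 groups lay above day 0, and with DMSO it stood 2.41-fold above day 0 (log2 fold change 1.27, SE 0.0498, adjusted p 4.31e-22). Its head-to-head neighbour Col4a6, the alpha-6 chain, measured 1.32 and 1.25, 1.62 and 1.39, and 1.88 and 1.66 CPM. Each day 4 library lay above both day 0 libraries, but the difference from day 0 under DMSO was not called (a log2 difference of 0.22, SE 0.235, adjusted p 0.415). Col4a1 exceeded Col4a5 18.5- and 19.1-fold per kilobase before differentiation and 14.4- and 14.8-fold under DMSO.

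Col4a3 and Col4a4, the alpha-3 and alpha-4 chains, were close to the floor of detection and were not tested. Col4a3 had 2 and 2 counts before differentiation, 14 and 11 under DMSO, and 9 and 6 under 4-PBA. Over each group its normalised counts were 5.41 times as high with DMSO as at day 0, with an exact 95% interval from 1.87 to 21.4 that covers counting error only. It entered 8 of the alternative fits and was called higher with DMSO in 4 of them. These kept any gene with 1 count (adjusted p 0.0471), required at least 10 counts in each library of a group (0.0120), or left out 4-PBA replicate 1 (0.0408) or 4-PBA replicate 2 (0.0378). It was not called by DESeq2 (0.0963) or without day 0 replicate 1 (0.0772), day 0 replicate 2 (0.159) or DMSO replicate 2 (0.0521). The DMSO libraries alone held at least 10 counts of Col4a3. The filter that required 10 counts thus kept it only through the group where it is high, and its call there does not support a rise. Among fits that left out a library, it entered only those that kept DMSO replicate 1, so their calls are weak support too. Exons of Col4a3 overlap a gene on the opposite strand over 5.65% of their bases. Col4a4 had 2 and 4, 5 and 5, and 3 and 10 counts, a ratio of 1.44 between DMSO and day 0 with an interval from 0.475 to 4.83, so no difference was detectable at this depth.

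**Figure D2:**
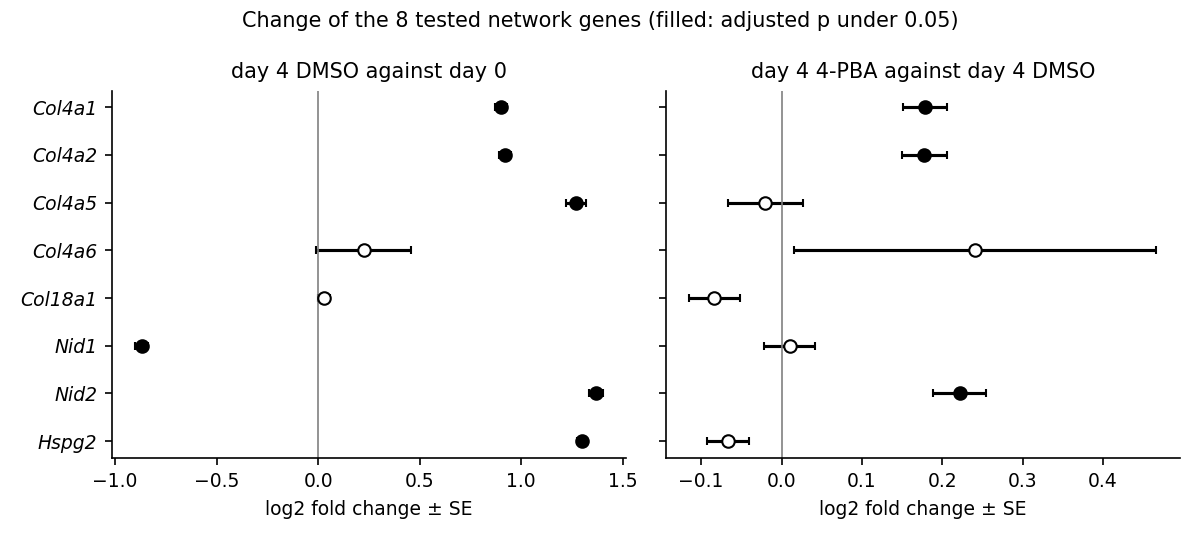
Log2 fold change with its standard error for the 8 tested network genes, between DMSO and day 0 (left) and between 4-PBA and DMSO (right, on its own scale); filled points have an adjusted p-value under 0.05. Nid1 is the only called gene left of 0, and Col4a1, Col4a2 and Nid2 are the filled points with 4-PBA.

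The nidogens moved in opposite directions. Nid1, the main nidogen of most tissues, held 765 and 779.8 CPM before differentiation. Under DMSO it held 439 and 407 CPM, and under 4-PBA 423 and 429 CPM. Every day 0 library lay above every day 4 library, and with DMSO it fell by 0.87 on the log2 scale (SE 0.0316, adjusted p 3.56e-22), to 423 ± 22.5 from 772 ± 10.7 CPM. Nid2, its homologue with the same binding partners, stood at 87.1 and 85.2, 218 and 227, and 261 and 257 CPM. It was 2.58-fold higher with DMSO than at day 0 (log2 fold change 1.37, SE 0.0341, adjusted p 5.65e-28). Per kilobase, Nid1 exceeded Nid2 7.03- and 7.33-fold before differentiation, 1.61- and 1.44-fold under DMSO, and 1.29- and 1.34-fold under 4-PBA. The size of this ratio depends on the length used: per coding length its group means were 10.1, 2.15 and 1.85. The groups did not overlap, and Nid1 was the higher in every library. Exons of Nid2 overlap Rtraf on the opposite strand over 8.45% of their bases and those of Nid1 overlap Gm48682 over 2.06%. The sources do not say whether counting used strand, so reads there could be shared.

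Hspg2 encodes perlecan, a large multidomain proteoglycan that also anchors acetylcholinesterase at the neuromuscular junction. It held 980.1 and 988 CPM before differentiation. Under DMSO it held 2458 and 2387 CPM, and under 4-PBA 2305 and 2322 CPM. The groups did not overlap, and it was 2.46-fold higher with DMSO than at day 0 (log2 fold change 1.30, SE 0.0265, adjusted p 1.65e-30). It accounted for 32.4% of the network's counts at day 0 and 48.1% with DMSO, more than any other member, and its transcript of 14187 bases is the longest of the network. Col18a1, whose C-terminal fragment is endostatin, stood at 338 and 329, 349 and 332, and 315 and 326 CPM. Day 0 and DMSO libraries overlapped, and no difference was called (log2 fold change 0.029, SE 0.0314, adjusted p 0.432). Without DMSO replicate 1 its value was -0.0053. Col18a1 has more than 1 transcription start, and counts per gene do not separate its isoforms.

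The effect of the drug during differentiation was read from 4-PBA against DMSO, both at day 4. Col4a1, Col4a2 and Nid2 rose with 4-PBA, by 13.2%, 13.1% and 16.6%. No difference was called for the other 5 tested genes. The 3 calls among 8 tested genes compare with 4.90% of all tested genes, 2.13% higher and 2.78% lower. In 7 of the 8 the groups' libraries did not overlap, as for 45.5% of all tested genes. The network was chosen with these results known, so this count is a description. These differences are small beside the changes of the same genes since day 0.

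For Col4a1 the level under 4-PBA was 1005 ± 0.732 CPM, beside 888 ± 15.2 CPM under DMSO (a log2 difference of 0.18, SE 0.0274, adjusted p 5.43e-05). Col4a2 stood at 766 ± 2.10 against 678 ± 5.57 CPM (0.18, SE 0.0277, adjusted p 6.95e-05). Nid2 stood at 259 ± 3.38 against 222 ± 6.41 CPM (0.22, SE 0.0325, adjusted p 2.66e-05). In each case both 4-PBA libraries lay above both DMSO libraries. Over 13 alternatives, which include leaving out each library, the log2 fold change stayed between 0.16 and 0.20 for Col4a1, 0.17 and 0.19 for Col4a2 and 0.19 and 0.25 for Nid2, with adjusted p-values of at most 0.0104, 0.0128 and 0.00610. Exons of Col4a1 and Col4a2 overlap genes on the opposite strand over 0.295% and 0.982% of their bases.

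Hspg2 held 2314 ± 11.5 CPM under 4-PBA, beside 2422 ± 49.8 CPM under DMSO (a log2 difference of -0.066, SE 0.026, adjusted p 0.155). Col18a1 held 321 ± 7.77 and 340.2 ± 11.8 CPM (-0.084, SE 0.0314, adjusted p 0.131). In both, each 4-PBA library lay below each DMSO library. Both were called lower without DMSO replicate 2, Hspg2 at -0.086 (adjusted p 0.0134, in a range over alternatives up to 0.599) and Col18a1 at -0.12 (adjusted p 0.00919, in a range up to 0.657). Nid1 was at 426 ± 4.55 and 423 ± 22.5 CPM (0.0099, SE 0.0315, adjusted p 0.928), with 4-PBA libraries inside the DMSO range, and its sign changed when DMSO replicate 2 or 4-PBA replicate 2 was left out. Col4a5 was at 59.2 ± 0.680 and 60.1 ± 0.0337 CPM (-0.020, SE 0.0464, adjusted p 0.899). Col4a6 had a larger estimate with a wide error (0.24, SE 0.226, adjusted p 0.673), at 1.77 ± 0.160 and 1.50 ± 0.161 CPM. For Col4a3 and Col4a4 the ratios of 4-PBA to DMSO were 0.663 (exact 95% interval 0.325 to 1.31) and 1.44 (0.582 to 3.66).

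Ratios within a library need no scaling between libraries. Hspg2 to Col4a1 per kilobase was 0.963 and 0.968 before differentiation, 1.31 and 1.24 under DMSO, and 1.07 and 1.08 under 4-PBA. Col4a1 to Col4a5 was 14.4 and 14.8 under DMSO and 16.6 and 16.9 under 4-PBA. Col18a1 to Col4a1 was 0.841 and 0.818, 0.470 and 0.437, and 0.371 and 0.384. For these 3 ratios and for Nid1 to Nid2 the DMSO and 4-PBA libraries did not overlap, whereas for Col4a1 to Col4a2 they did.

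**Figure D3:**
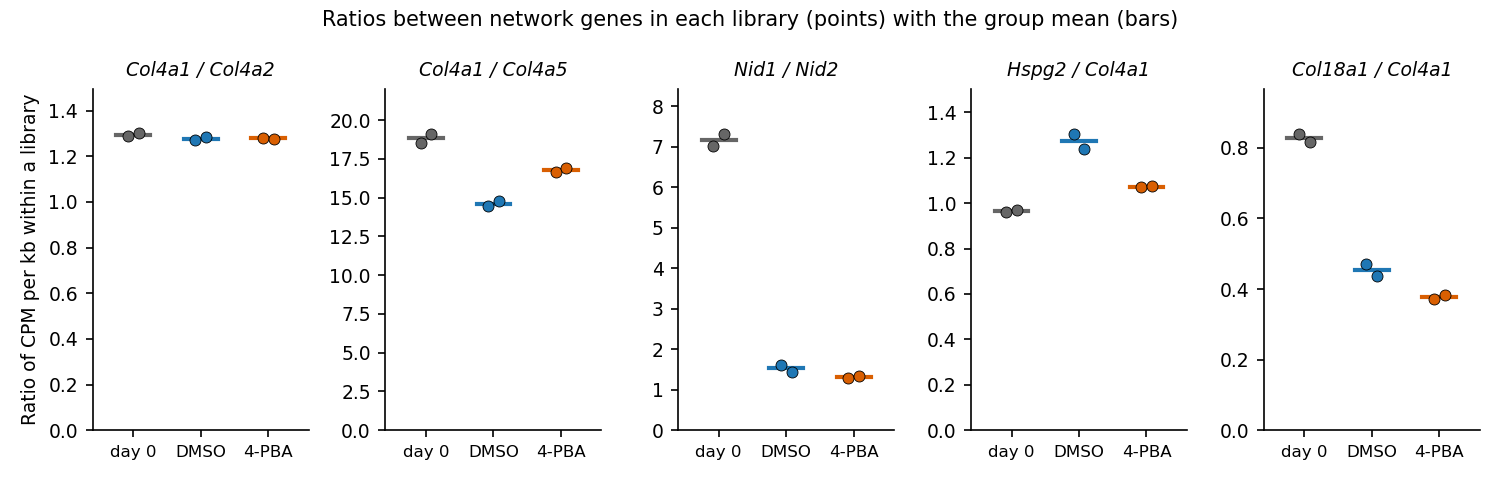
Ratios of CPM per kilobase between network genes in each library (points) with the group mean (bars); each axis starts at 0. Col4a1 to Col4a2 lies between 1.27 and 1.30 in all 6 libraries, while Nid1 to Nid2 drops from above 7 at day 0 to under 1.7 at day 4.

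Markers of stage were set beside these values. Between 4-PBA and DMSO, edgeR called 2 of 5 myotube markers, both lower (Mymk and Acta1), and 3 of 5 muscle lineage markers, 1 higher (Cdh15) and 2 lower (Des and Itga7). It called none of 5 cycling markers, of which 4 had an unadjusted p-value under 0.05, and DESeq2 called none of them either. Myog, the differentiation regulator, held 288 ± 1.16 and 287 ± 14.2 CPM (a log2 difference of 0.0052, SE 0.0334, adjusted p 0.972), and Myh3, embryonic myosin heavy chain, held 2043 ± 41.4 and 2017 ± 95.7 CPM (0.018, SE 0.0293, adjusted p 0.838). The fusion gene Mymk was lower with 4-PBA, at 336 ± 2.55 against 378 ± 26.5 CPM (-0.17, SE 0.0393, adjusted p 0.0134), and not called without DMSO replicate 2 or either 4-PBA replicate (adjusted p 0.0909, 0.142 and 0.0940). Acta1, skeletal actin (-0.094, SE 0.0282, adjusted p 0.0450), Des, the filament protein desmin (-0.11, SE 0.0258, adjusted p 0.00881), and Cdh15, M-cadherin (0.11, SE 0.0288, adjusted p 0.0171), are named after their values were seen. Each of these 3 calls was lost when 4-PBA replicate 1 or 4-PBA replicate 2 was left out. Cdh15 was also lost without DMSO replicate 2 (adjusted p 0.0675), and Acta1 under 9 of 13 alternatives (adjusted p up to 0.461), among them every library left out but DMSO replicate 1. The cycling markers Mki67 (0.19, SE 0.0617, adjusted p 0.163) and Ccnb1 (0.24, SE 0.0854, adjusted p 0.215) were above both DMSO libraries in both 4-PBA libraries and were called higher with no filter on low counts and without DMSO replicate 1 (adjusted p down to 1.56e-11 and 1.72e-10). The part of these markers in the changes of Col4a1, Col4a2 and Nid2 was not tested.

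Setting 4-PBA against day 0 uses libraries that both other comparisons also use. It called the same number of network genes, 5 higher and 1 lower of 8 tested, against 33.2% and 32.4% of all tested genes (65.6% in either direction). In all 8 the libraries did not overlap, as for 81.8% of all tested genes. The log2 fold change was 1.08 (SE 0.0278) for Col4a1, 1.10 (SE 0.0282) for Col4a2, 1.25 (SE 0.0501) for Col4a5, 1.59 (SE 0.0342) for Nid2, 1.23 (SE 0.0265) for Hspg2 and -0.86 (SE 0.0316) for Nid1, with adjusted p-values of 8.47e-22 or less for those that rose and 5.36e-22 for Nid1. Nid2 was thus 3.01-fold above day 0 with 4-PBA and 2.58-fold with DMSO. Col4a6 (0.47, SE 0.234, adjusted p 0.0796) and Col18a1 (-0.055, SE 0.0314, adjusted p 0.127) were not called. Col18a1 was called lower when libraries were scaled by size only (adjusted p 0.0362, in a range over alternatives up to 0.646).

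The genes whose profile over the 6 libraries was most like that of Col4a1 were found by Euclidean distance between centred log2 CPM values, among 9690 other genes with a mean of at least 10 CPM. Col4a2 was the nearest of all, at a distance of 0.026, followed by Cirbp, a cold-inducible RNA-binding protein (0.042), and Rcn3, a calcium-binding protein of the endoplasmic reticulum (0.078). Col4a5 ranked 486th, Hspg2 579th, Nid2 1045th, Col18a1 4452nd and Nid1 8698th. For Nid2 the nearest were Fstl1, a secreted glycoprotein (0.12), Txndc16, a thioredoxin-domain protein (0.12), and Il17rd, a membrane inhibitor of growth factor signalling (0.13). Col4a5 ranked 147th, Hspg2 186th, Col4a2 340th and Col4a1 366th from Nid2. With 6 libraries in 3 groups, these distances describe likeness over few points.

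A list of 47 basement membrane partners, of which 46 were tested (Itga2 did not pass the filter on low counts), was set beside the network. Between DMSO and day 0, 43 were called, 34 higher and 9 lower (against 33.8% and 32.6% of all tested genes), with a median log2 fold change of 0.53. All 11 laminin chains were called, 9 higher and 2 lower. Lama2, the laminin alpha chain of adult muscle, was 3.07-fold higher (log2 fold change 1.62, SE 0.0358). All 10 tested receptors were called, 8 higher and 2 lower, with Itga7, the laminin receptor of muscle, 2.82-fold higher (1.50, SE 0.0265). Of 10 other matrix components 5 were higher and 3 lower, among them Sparc, a collagen-binding protein, which rose 2.67-fold (1.42, SE 0.0256), and Fbln1, the nidogen-binding fibulin-1, which fell by 1.94 on the log2 scale (SE 0.0542). Of 10 collagen synthesis genes 7 were higher and 2 lower, with Plod2, a collagen lysyl hydroxylase, 2.17-fold higher (1.12, SE 0.035). All 5 proteases and inhibitors were higher, Mmp2, a type IV collagenase, 3.84-fold (1.94, SE 0.0392). Adjusted p-values of these 6 genes were 4.7e-25 or less.

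Between 4-PBA and DMSO, 7 of 46 tested partners were called, 2 higher and 5 lower (against 2.13% and 2.78% of all tested genes, 4.90% in either direction), with a median log2 fold change of 0.011 over the list. Those higher were Fbln1, at 25.7 ± 0.573 CPM beside 20.5 ± 0.782 CPM (a log2 difference of 0.33, SE 0.0571, adjusted p 2.87e-04), and Timp3, a matrix-bound protease inhibitor (0.14, SE 0.0333, adjusted p 0.00972). Among those lower were Ddr2, a collagen receptor (-0.14, SE 0.0305, adjusted p 0.00344), Itga7 (-0.10, SE 0.0258, adjusted p 0.0138), P4ha2, a prolyl hydroxylase subunit (-0.13, SE 0.037, adjusted p 0.0316), and Itga6, a laminin-binding integrin chain named after its values were seen (-0.13, SE 0.0362, adjusted p 0.0303). The libraries of the groups did not overlap for 27 of the 46 partners, against 45.5% of all tested genes.

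Fewer partners were called without 4-PBA replicate 1 (2) or 4-PBA replicate 2 (3), and over all genes 341 and 295 were called in place of 855. Fbln1 was called under every alternative run. Ddr2 was lost without 4-PBA replicate 2, Itga7 without either, and Timp3 without DMSO replicate 2 (log2 fold change 0.083) or 4-PBA replicate 1. P4ha2 and Itga6 were each lost under 7 of 13 alternatives, among them DESeq2 (adjusted p 0.0693 and 0.0642, in ranges up to 0.282 and 0.385). P4ha2 was lost without every library but DMSO replicate 2, and Itga6 without every library but DMSO replicate 1. No laminin chain was called higher with 4-PBA, and Sparc (0.014, SE 0.0251, adjusted p 0.861), Plod2 (0.056, SE 0.0337, adjusted p 0.428) and Mmp2 (0.10, SE 0.0356, adjusted p 0.101) were not called; Mmp2 was called without DMSO replicate 2 (adjusted p 0.0481). Exons of Timp3 overlap Syn3 on the opposite strand over 21.3% of their bases.

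**Figure D4:**
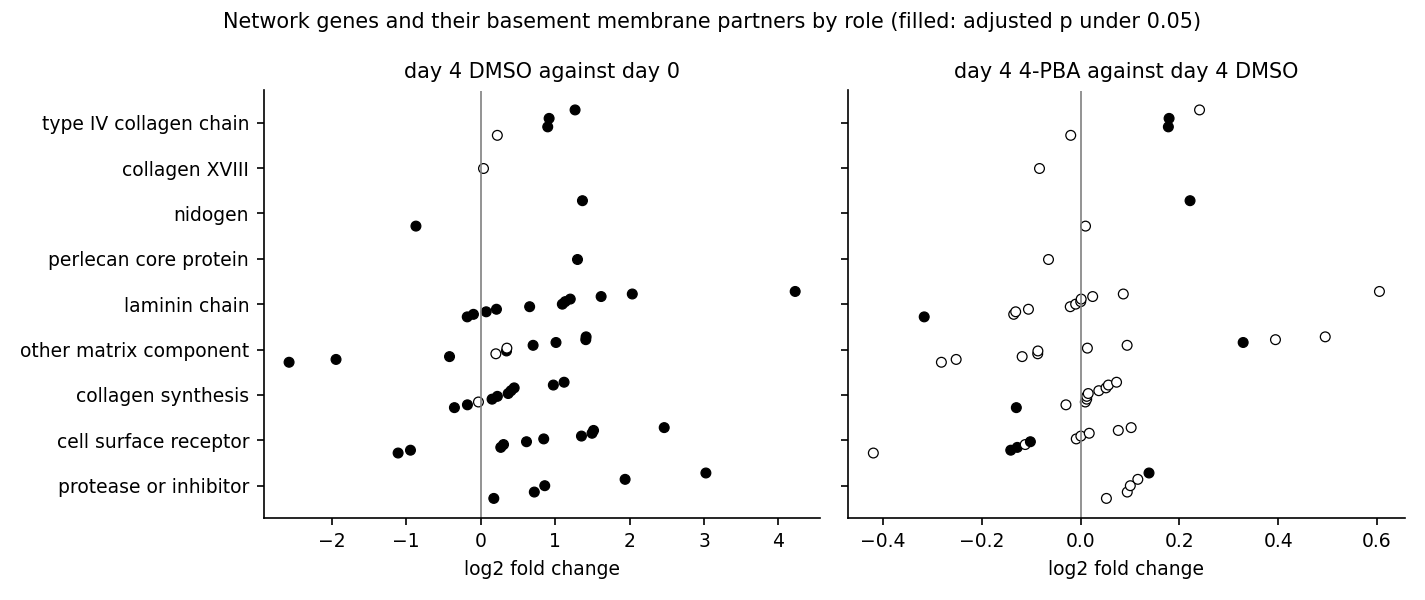
Log2 fold change of each tested network gene and basement membrane partner by role, between DMSO and day 0 (left) and between 4-PBA and DMSO (right, on its own scale); filled points have an adjusted p-value under 0.05. Called partners spread to both sides of 0 in both comparisons, and the 3 called network genes with 4-PBA lie to the right.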

How the data were processed

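The deposited values are raw counts per gene symbol, 1 column per library, with no normalisation by the authors; per the submitters' processing notes the genome build was GRCm39. Per the labels' protocols, DNase-treated total RNA was made into directional libraries. The aligner, counting tool, annotation and strand setting are not given in the sources used here.

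The analysis used edgeR 4.0.16 (R 4.3.3), with filterByExpr by group, TMM scaling and 1 quasi-likelihood model with a mean per group over all 6 libraries (3 residual degrees of freedom), adjusted by Benjamini-Hochberg over 17433 genes. CPM is the count per 1000000 after TMM scaling, and values are mean ± SD over 2 libraries. Standard errors of log2 fold changes were taken as |log2 fold change| / √F. Replicates varied with a common biological coefficient of variation of 3.74%, and the spread between libraries limited the precision of abundant genes, and counting that of Col4a3, Col4a4 and Col4a6. Gene lengths and exon overlaps came from GENCODE M21 (36556 symbols matched) and promoters from RefSeq.

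The members, the partner list and the tests were chosen with earlier results of these data known. Named partners were, in each role, the gene with the smallest p-value between DMSO and day 0 and between 4-PBA and DMSO; stage markers and the 3 nearest profiles of Col4a1 and Nid2 were named too. The values of 1 partner that the rule selects are not reported here. Alternatives comprised scaling by DESeq2 size factors or by library size alone, 2 other filters, the DESeq2 1.42.0 Wald test, only the 4 libraries compared, a replicate block, and leaving out each library. The fit was tested on 1 set of simulated data for 4-PBA against DMSO. It called 42 of 50 genes changed 1.25-fold, the smallest change simulated, and 45 of 50 changed 1.5-fold. All 50 genes changed 2-fold and all 50 changed 4-fold were called. Over the whole simulated set of 16975 genes it made 17 false calls. Changes as small as those called for the network with 4-PBA were not simulated. Figures used matplotlib 3.10.9.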

Additional observations from a re-analysis of the deposited data

How the results depend on the processing

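The directions of the 6 network genes called between DMSO and day 0, and of the 3 called between 4-PBA and DMSO, held under every alternative run. Leaving out each library gave 6 to 7, 3 to 5 and 6 to 6 called network genes in the comparisons of DMSO with day 0, 4-PBA with DMSO and 4-PBA with day 0, and 40 to 42, 2 to 10 and 40 to 43 called partners. Over all genes it gave 10461 to 11526, 295 to 1194 and 10354 to 11666 calls. The 5 network genes called with 4-PBA without DMSO replicate 2 were those called over all libraries and, lower, Hspg2 and Col18a1. Signs changed for Col18a1 between DMSO and day 0 (-0.0053 without DMSO replicate 1, 0.0633 without DMSO replicate 2) and, between 4-PBA and DMSO, for Nid1 (-0.042 without DMSO replicate 2 and -0.000478 without 4-PBA replicate 2, up to 0.0641), for Sparc (-0.00096), Myog (-0.045) and Myh3 (-0.030) without DMSO replicate 1 (up to 0.0287, 0.0578 and 0.0687 without DMSO replicate 2), and for Myh3 (-0.00205) without 4-PBA replicate 2. Per coding length the ratio of Col4a1 to Col4a2 was 1.36 at day 0, 1.34 with DMSO and 1.34 with 4-PBA. That of Hspg2 to Col4a1 was 0.788, 1.04 and 0.876 in the same order. A replicate block left 6, 3 and 6 network genes called; the replicate numbers share no stated culture, and deviations of same-numbered libraries correlated at -0.028 (day 0 and DMSO), -0.0031 (day 0 and 4-PBA) and -0.012 (DMSO and 4-PBA). With 1 library left in a group, its spread is taken from the other groups. Depth limits Col4a3 and Col4a4, with at most 14 counts in a library.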
